A study of Mus musculus with 10 samples.

Results

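Chromatin accessibility was examined at 8 mouse genes of cellular senescence and its secretory phenotype, namely Cdkn2a, Cdkn2b, Lmnb1, Il6, Il1a, Il1b, Mmp3 and Igfbp3. A called region belonged to a gene when it overlapped the annotated gene body (GENCODE M21, genome build mm10) extended by 20 kb on each side. Overlapping regions of the different treatments were merged, which left 58 merged regions at the 8 genes of 211107 in the genome. The windows of Cdkn2a and Cdkn2b overlap and share 3 merged regions, which were counted once in totals.

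The cells were Myc-CaP, 1 cell line of prostate cancer from FVB/NJ mice, and every group was harvested at 48 h for ATAC-seq, in which a transposase inserts adapters into accessible DNA. Ctrl cells received no agent, Oxali cells 2 µM oxaliplatin, Cispl cells 2 µM cisplatin, IFNγ cells 1000 pg interferon-γ (the labels give no volume) and Oxali + IFNγ cells both 2 µM oxaliplatin and 1000 pg interferon-γ. For the ATAC-seq comparisons the study's methods give the interferon-γ dose as 1 ng/mL. Each of the 5 groups had 2 libraries, 10 in all, which the authors pooled before calling regions. Each group was therefore 1 list without replicates, no difference could be set against the spread between libraries, and no test was made.

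Senescence is a lasting arrest of the cell cycle that DNA damage, including that by platinum drugs, can bring about. The arrest is held by inhibitors of cyclin-dependent kinases, and the nuclear lamina of senescent cells is known to lose lamin B1. Senescent cells also secrete a mixture of cytokines, proteases and growth factor binding proteins, in which interleukin-1α is known to act upstream of interleukin-6 through NF-κB and C/EBP factors.

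The level of a region is the number of insertions (read ends, each widened by the authors) piled up at its highest summit, divided by the genome background of its list. The genome background was 12.1 insertions for Ctrl, 11.3 after Oxali, 13.8 after Cispl, 9.62 after IFNγ and 12.9 after Oxali + IFNγ, so IFNγ was the shallowest list. At that background a region needed a level of 1.73, 1.77, 1.96, 1.87 or 1.70 in the same order to be called. Intervals are 95% exact Poisson intervals for levels and 95% exact binomial intervals for ratios of levels, and they cover counting error alone. A higher level can mean more cells with an open region or a more open region in each cell, and these cannot be told apart. Among markers of prostate luminal epithelium, a region at the start site was called in every list for the keratin gene Krt8, in Ctrl and Oxali for Krt18, in IFNγ alone for Epcam and in none for Cdh1, the gene of E-cadherin. Of 5 leukocyte markers only Csf1r had one, with levels of 6.26, 12.2, 10.5, 7.38 and 15.4 in the order above. Of 4 fibroblast markers Col1a1 and Pdgfra had one in every list, Col1a2 in Ctrl and Cispl, and Dcn in none. The part of other cells in the results was not tested.

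The sequences below belong to 5 of the secretory genes. The first pair shows the central bases of the regions with the highest levels among those not called in Ctrl at Il1b and Igfbp3, on the plus strand of GRCm38, at chr2:129363164-129363364 and chr11:7210425-7210625. The other 3 are promoters from RefSeq (GRCm38.p6), 250 bases up to the base before the start site and read in the direction of the gene, at chr5:30012864-30013113 (Il6, plus strand), chr9:7445572-7445821 (Mmp3, plus strand) and chr2:129309973-129310222 (Il1a, minus strand). Il6 is shown because its promoter lies in a region that, as merged over the lists, was called in every list (with IFNγ the bases that hold the NF-κB letters were not called), Mmp3 and Il1a because theirs lie in none and hold matches to the letters below (those of Il1b and Igfbp3 lie in none either and hold no match). Capitals mark exact matches on either strand to AP-1 (TGANTCA, with N any base), to NF-κB (GGGA, 3 bases of any kind, TCC), to C/EBP (TTGC, 2 bases of any kind, AA) and to CTCF (CCA, 2 bases of any kind, AGG, 1 base of any kind, GGC). The CTCF letters were added after the Igfbp3 sequence had been read.
Il1b flank: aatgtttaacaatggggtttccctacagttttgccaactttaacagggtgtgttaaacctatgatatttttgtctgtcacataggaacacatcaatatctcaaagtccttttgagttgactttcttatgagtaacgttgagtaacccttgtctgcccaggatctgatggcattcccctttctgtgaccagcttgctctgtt
Igfbp3 intron: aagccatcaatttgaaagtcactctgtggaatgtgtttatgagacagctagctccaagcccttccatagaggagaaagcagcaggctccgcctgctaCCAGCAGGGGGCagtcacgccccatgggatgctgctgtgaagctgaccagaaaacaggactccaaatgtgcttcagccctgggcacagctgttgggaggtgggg
Il6 promoter: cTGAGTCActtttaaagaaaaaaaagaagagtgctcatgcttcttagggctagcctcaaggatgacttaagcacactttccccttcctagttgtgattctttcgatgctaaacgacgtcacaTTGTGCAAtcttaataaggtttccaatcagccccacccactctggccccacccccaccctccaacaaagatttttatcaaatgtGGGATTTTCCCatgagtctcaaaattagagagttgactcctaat
Mmp3 promoter: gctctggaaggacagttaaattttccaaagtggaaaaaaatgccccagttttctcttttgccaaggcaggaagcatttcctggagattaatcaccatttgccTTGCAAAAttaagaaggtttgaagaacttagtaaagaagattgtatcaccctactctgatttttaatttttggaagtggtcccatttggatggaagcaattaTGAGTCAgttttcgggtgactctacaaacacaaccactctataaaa
Il1a promoter: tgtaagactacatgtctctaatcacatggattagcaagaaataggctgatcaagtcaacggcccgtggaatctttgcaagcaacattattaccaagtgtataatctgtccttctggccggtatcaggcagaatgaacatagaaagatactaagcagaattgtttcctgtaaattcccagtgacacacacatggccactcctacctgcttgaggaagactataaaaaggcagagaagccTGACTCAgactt

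The Il6 promoter held an AP-1 match that begins 249 bases before the start site, a C/EBP match at 128 bases and NF-κB matches on both strands that overlap, at 44 and 43 bases. The Mmp3 promoter held a C/EBP match at 148 bases and an AP-1 match at 46 bases before the start site, and the Il1a promoter an AP-1 match at 12 bases. Promoters were found in RefSeq for 7 of the 8 genes, and those of Cdkn2a, Cdkn2b, Il1b and Igfbp3 had no match to any of these letters. Over all 32851 promoters, matches within the same 250 bases were present in 6.75% for AP-1, 3.86% for NF-κB, 9.56% for C/EBP and 0.816% for CTCF. A match is a run of letters and shows neither binding nor a cause.

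To see how much of the 8 windows was open in each group, called regions were counted. There were 25 in Ctrl, 43 after Oxali, 44 after Cispl, 33 after IFNγ and 46 after Oxali + IFNγ. They covered 14502, 19713, 22646, 16113 and 21986 bp with a mean level of 34.6, 19.6, 15.2, 19.5 and 14.7. Each treated list thus held more regions than Ctrl, at a lower mean level. Over the 20 merged regions called in all lists the median level was 11.4, 13.5, 12.3, 9.87 and 13.1, beside 11.5, 14.8, 13.7, 9.77 and 14.8 over the 85377 such regions of the genome, so that the platinum lists were above Ctrl by less than in the genome and would be below it with the lists scaled to an equal median. The mean over the 20 was 41.3, 34.8, 28.7, 27.5 and 26.6. Of the 58 merged regions, Ctrl had 23 called (39.7%), Oxali 39 (67.2%), Cispl 41 (70.7%), IFNγ 29 and Oxali + IFNγ 44 (75.9%). Over the whole genome the shares were 52.4%, 70.0%, 77.4%, 50.8% and 79.1%. The share at the 8 genes was below that of the genome in each list, and most so in Ctrl.

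**Figure D1:**
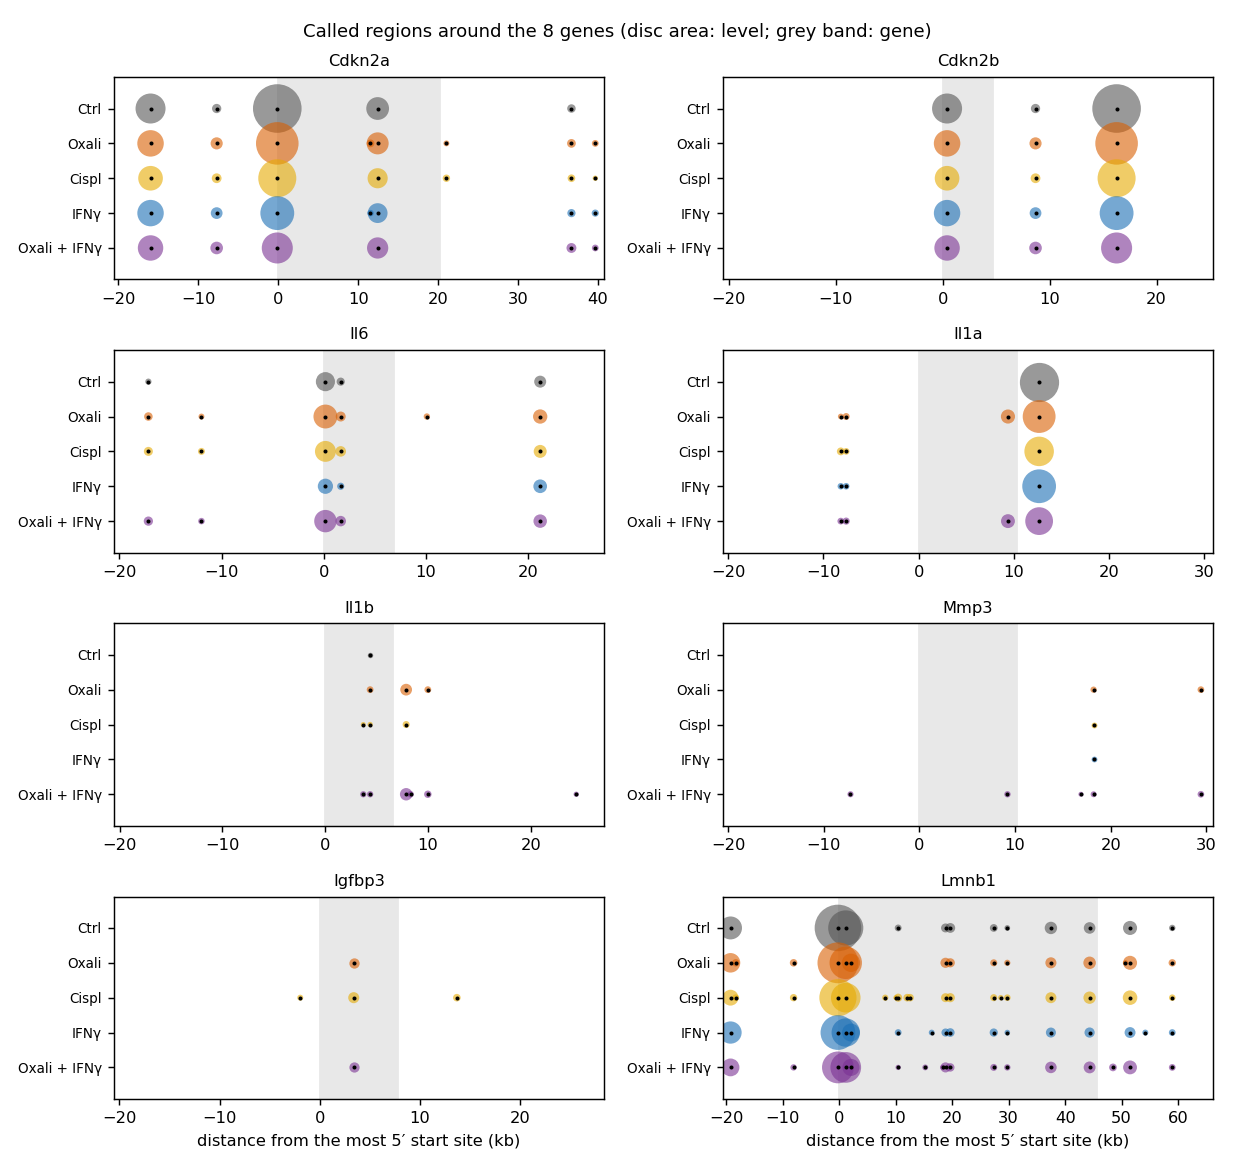
Called regions of the 5 lists (rows) around each gene by distance of the summit from the most 5′ start site in kb, positive into the gene, with the gene as a grey band and the level as the area of a disc. The windows of Cdkn2a, Cdkn2b and Lmnb1 hold the largest discs, and those of Mmp3 and Igfbp3 hold none in Ctrl.

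A region of q-value at most 0.01 was gained with a treatment where no deposited Ctrl region overlapped it by 1 bp. It was lost where a Ctrl region of that strength had no counterpart in the treated list. With Oxali 16 of 41 such regions (39.0%) were gained, beside 32.5% over the genome. With Cispl 16 of 41 (39.0%) were gained, beside 37.3%. For IFNγ the count was 7 of 32 (21.9%, beside 12.9%) and for Oxali + IFNγ 21 of 45 (46.7%, beside 38.4%). Of the 25 Ctrl regions, 1 was lost with Oxali, none after Cispl, 2 after IFNγ and none after Oxali + IFNγ, where the genome lost 9.11%, 5.90%, 15.8% and 7.59%. A gained region lay in the window of 7, 8, 4 and 7 of the 8 genes with Oxali, Cispl, IFNγ and Oxali + IFNγ. Over 21938 protein-coding genes the shares were 73.4%, 79.6%, 44.7% and 78.1%, so a gain near a gene was common across the genome with a platinum drug. All 4 comparisons use the same Ctrl list.

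**Figure D2:**
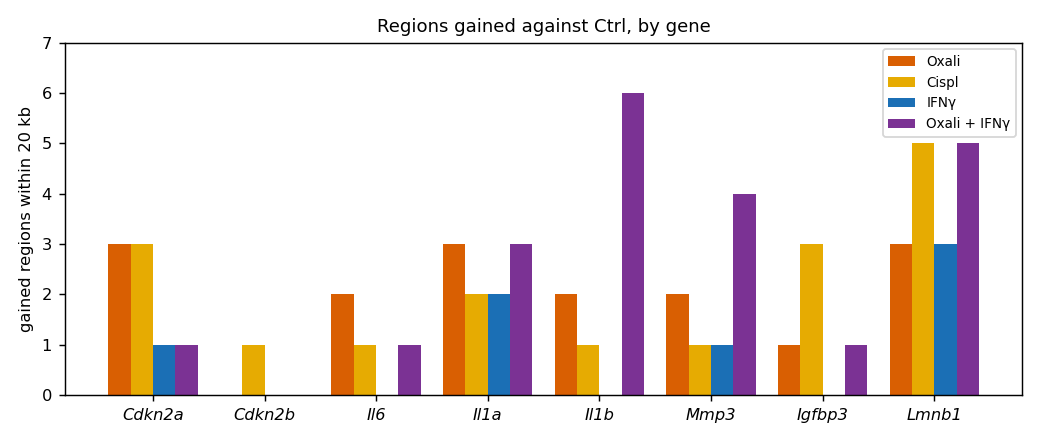
Bars give the number of regions gained against Ctrl within 20 kb of each gene after Oxali, Cispl, IFNγ and Oxali + IFNγ. The tallest bar is that of Il1b with Oxali + IFNγ, at 6, and IFNγ has no bar at Cdkn2b, Il6, Il1b or Igfbp3.

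For regions called both with a treatment and in Ctrl, the median ratio of levels was 1.03 after Oxali (22 regions), 0.945 after Cispl (23), 0.777 after IFNγ (21) and 0.971 after Oxali + IFNγ (23). The medians over all such regions of the genome were 1.14, 1.09, 0.854 and 1.13. A ratio of at least 1.5 was found at 4, 2, 1 and 3 of these regions, where the genome had 29.2%, 25.5%, 4.26% and 30.4%. A ratio as low as 1/1.5 was found at 0, 4, 6 and 5, where the genome had 7.68%, 12.0%, 18.4% and 14.3%. Scaling the lists to an equal median over the regions called in all 5 would shift every log2 ratio by -0.37, -0.26, 0.23 and -0.37, and would move 4, 6, 4 and 5 of these regions to the other side of 1. The ratio moved with the Ctrl level across the genome. In the decile of regions with the lowest Ctrl level the median was 1.62, 1.58, 1.17 and 1.68, and in the decile with the highest it was 0.711, 0.610, 0.680 and 0.528. Ratios at the start sites and the main other regions are therefore given beside the median of all regions in the same decile of Ctrl level, a comparison that the scaling does not change. Deciles were cut for each treatment apart, so a region near a decile edge can fall in different deciles with different treatments. Of the regions at the 8 genes, 9 of 22, 10 of 23, 6 of 21 and 8 of 23 lay above the median of their decile.

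**Figure D3:**
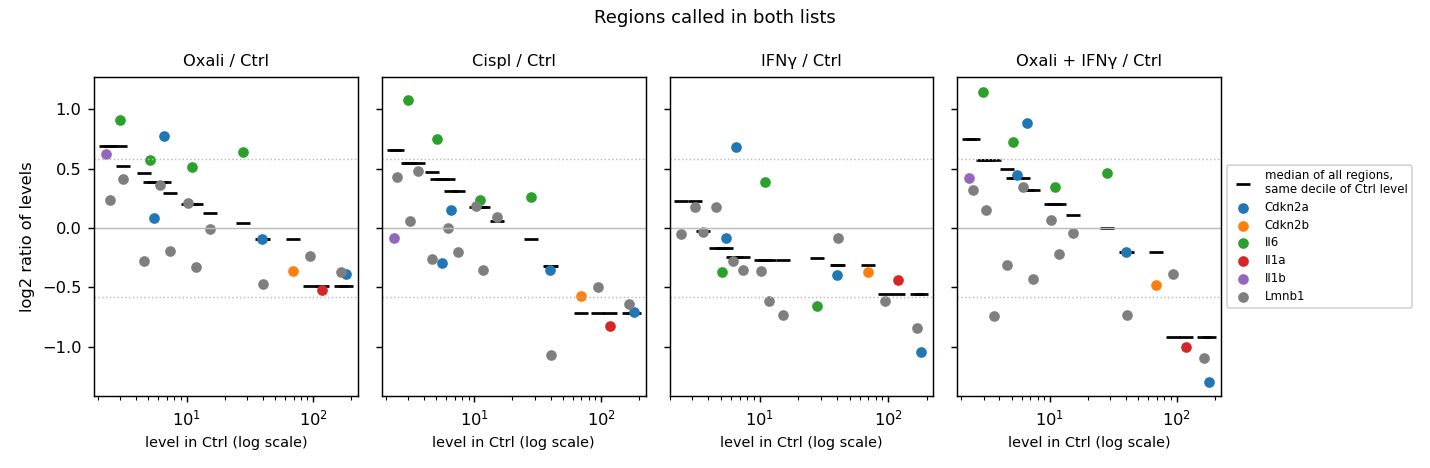
Log2 ratio of the level with each treatment to that in Ctrl, against the Ctrl level on a log scale, for the regions of the 8 genes called in both lists. Black dashes give the median of all regions in the same decile of Ctrl level and dotted lines mark 1.5-fold. The Il6 regions (green) lie above the dashes in the 3 panels with a platinum drug, and most Lmnb1 regions (grey) lie below them.

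Start sites divided the genes evenly. Cdkn2a, Cdkn2b, Il6 and Lmnb1 had a region within 1 kb of a start site in every list. Il1a, Il1b, Mmp3 and Igfbp3 had none in any list, which at this depth says only that no region reached the calling limit. Of 21924 protein-coding gene symbols, 57.5% had such a region in Ctrl, 59.7% after Oxali, 60.4% after Cispl, 57.1% after IFNγ and 60.9% after Oxali + IFNγ. No AP-1, NF-κB or C/EBP letters were found within 100 bases of the highest summits of the 7 merged regions at the start sites of the 8 genes. The matches in the Il6 promoter lie farther from its highest summit, which is inside the gene.

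Cdkn2a (chr4:89274471-89294653, minus strand) encodes the kinase inhibitor p16Ink4a and, from an upstream first exon in another reading frame, the p53 activator p19Arf. The region at the p19Arf start site (chr4:89294153-89295912, start site 89294653) had a level of 181 in Ctrl (2200 insertions), 139 after Oxali (1562), 111 after Cispl (1523), 87.9 after IFNγ (846) and 73.9 after Oxali + IFNγ (954). It was the highest region of the 8 windows in Ctrl, and every treated list was below Ctrl. The ratio was 0.765 (0.716 to 0.816) after Oxali, 0.611 (0.572 to 0.652) after Cispl, 0.485 (0.448 to 0.525) after IFNγ and 0.408 (0.378 to 0.440) after Oxali + IFNγ. The medians of the same decile were 0.711, 0.610, 0.680 and 0.528, so with the drugs alone its ratios were near those of strong regions elsewhere. With IFNγ it lay lower, and only 3.70% of the 13394 start-site regions called in both lists had a ratio as low. With Oxali + IFNγ 12.6% of 13622 did.

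The p16Ink4a start site lies in the same gene body, with its own region (chr4:89281963-89282923, start site 89282192). Its level was 39.7 in Ctrl (482 insertions), 37.2 after Oxali (419), 31.1 after Cispl (428), 30.1 after IFNγ (290) and 34.6 after Oxali + IFNγ (447). The levels differed far less between lists than at the p19Arf start site. Its ratio to Ctrl was 0.936 (0.819 to 1.07), 0.783 (0.686 to 0.894), 0.759 (0.654 to 0.880) and 0.872 (0.765 to 0.994), beside medians of 0.940, 0.802, 0.807 and 0.868 for the same decile. The promoter that gives p16Ink4a was thus called in untreated cells, and its level was below Ctrl in each treated list, with the interval for Oxali reaching above 1.

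Cdkn2b (chr4:89306299-89311039, minus strand), the neighbour of Cdkn2a, encodes the related kinase inhibitor p15Ink4b. The region at its start site (chr4:89310132-89311444) had a level of 69.1 in Ctrl (839 insertions), 53.8 after Oxali (606), 46.6 after Cispl (641), 53.6 after IFNγ (516) and 49.6 after Oxali + IFNγ (640). Again every treated list was below Ctrl, at ratios of 0.778 (0.700 to 0.865), 0.674 (0.607 to 0.748), 0.776 (0.694 to 0.867) and 0.718 (0.646 to 0.796). The medians of its decile with each treatment were 0.940, 0.610, 0.807 and 0.868. The ratio was below that median with Oxali, IFNγ and Oxali + IFNγ. With Cispl the region fell in the highest decile and its ratio was above the median there. The decile of the p16Ink4a start site had 0.802 with Cispl, and the Cdkn2b ratio of 0.674 was below that, so the exception rests on a decile edge. The medians over all start-site regions were 0.766, 0.677, 0.706 and 0.593. With the lists scaled to an equal median the ratio for IFNγ was 0.909 (0.813 to 1.02), and that of the p16Ink4a start site was 0.890 (0.766 to 1.03), so both intervals then reached above 1.

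**Figure D4:**
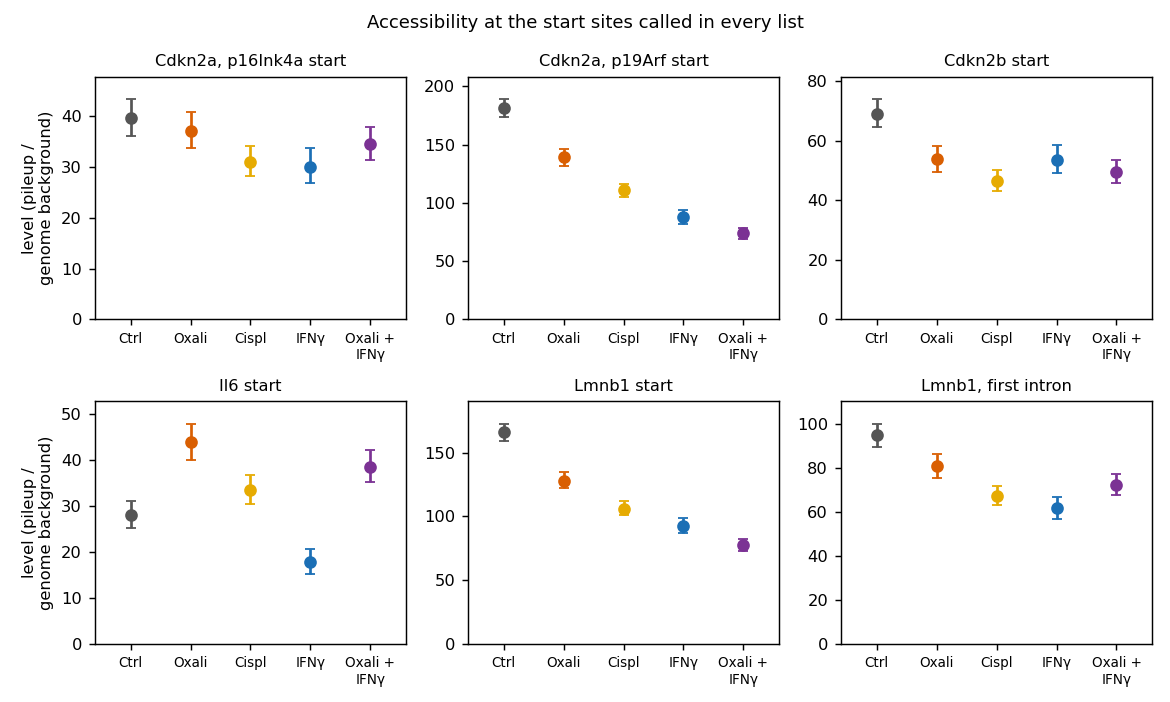
Level, as pileup over genome background, of the 6 regions at start sites that were called in every list, by list, with 95% Poisson intervals that cover counting error. At the p19Arf and Lmnb1 start sites every treated list is below Ctrl, and at the Il6 start site the 3 lists with a platinum drug are above Ctrl and IFNγ is below it, although Cispl is level with Ctrl once the lists are scaled to an equal median.

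Between the p19Arf and Cdkn2b start sites lies an intergenic region (chr4:89301860-89302532) with a higher level in treated cells. Its level was 6.59 in Ctrl (80 insertions), 11.3 after Oxali (127), 7.34 after Cispl (101), 10.6 after IFNγ (102) and 12.2 after Oxali + IFNγ (157). Oxali, IFNγ and their combination were above Ctrl, with ratios of 1.71 (1.28 to 2.29), 1.61 (1.19 to 2.18) and 1.85 (1.40 to 2.45), and Cispl was at 1.11 (0.822 to 1.51). The medians of its decile with each treatment were 1.31, 0.846 and 1.25, and 1.24 after Cispl. The decile with Oxali was a lower one than those with Cispl and Oxali + IFNγ. With the lists scaled to an equal median the ratios were 1.32 (0.991 to 1.77), 1.89 (1.39 to 2.56), 1.43 (1.08 to 1.89) and 0.929 (0.686 to 1.26), so Cispl then lay below Ctrl. Without that scaling it was the only region of the 8 windows at least 1.5-fold higher with IFNγ, and with it the region downstream of Il6 was another. The Cispl list also had a separate interval at its edge (chr4:89301860-89302009, level 2.18), 174 bp from the Ctrl region, which counts as the single gain at Cdkn2b.

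Downstream of Cdkn2a, in the noncoding gene Gm12606, a weak region (chr4:89254894-89255107) was not called in Ctrl and had levels of 3.55 after Oxali, 2.18 after Cispl, 3.95 after IFNγ and 3.49 after Oxali + IFNγ. It holds AP-1 matches at chr4:89254958-89254964 and chr4:89255012-89255018, both reading TGAGTCA. A second region (chr4:89273416-89273848), at the start of Gm12606, was gained with Oxali (2.66) and Cispl (4.21) and was not called in the lists with IFNγ. A further one (chr4:89282980-89283143), 126 bp from the Ctrl region of the p16Ink4a start site, was gained with Oxali (4.61) and was called with IFNγ (3.22). At the inhibitor locus the gains were thus weak or next to a region that Ctrl already had.

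Lmnb1 (chr18:56707813-56753424, plus strand) encodes lamin B1 of the nuclear lamina and had 26 of the 58 merged regions, 11 of them called in every list and 11 in 1 list. The region at its start site (chr18:56707302-56708630) had a level of 166 in Ctrl (2014 insertions), 128 after Oxali (1447), 106 after Cispl (1463), 92.6 after IFNγ (891) and 77.6 after Oxali + IFNγ (1001). The ratios were 0.774 (0.723 to 0.828), 0.641 (0.599 to 0.686), 0.558 (0.515 to 0.604) and 0.468 (0.433 to 0.505), beside 0.711, 0.610, 0.680 and 0.528 in the same decile. With IFNγ 12.5% of start-site regions had a ratio as low, and with Oxali + IFNγ 25.5%. With the drugs alone the ratios were above the decile medians, and with IFNγ or the combination they were below them.

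In the first intron of Lmnb1 a second region (chr18:56708682-56709443, summit 1156 bp past the start site) had levels of 94.6, 80.6, 67.1, 61.6 and 72.3 in Ctrl, Oxali, Cispl, IFNγ and Oxali + IFNγ. Its ratios were 0.852 (0.780 to 0.930), 0.710 (0.650 to 0.775), 0.652 (0.589 to 0.720) and 0.764 (0.700 to 0.834), beside 0.711, 0.610, 0.680 and 0.528 in the same decile, so with Oxali + IFNγ it lay above the decile median where the start-site region lay below it. Farther in, 2081 bp past the start site, a region (chr18:56709809-56709992) was gained with Oxali (level 25.7), IFNγ (24.6) and Oxali + IFNγ (22.5). It lay 395, 381 and 389 bp from a Ctrl region, and the local background there was 137, 95.3 and 121 insertions, far above the genome background. At such a background a region needs many more insertions to be called, and how far below the limit Ctrl was cannot be read from the lists.

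Other Lmnb1 regions lay farther from the start site. Upstream, a region 19247 bp before the start site (chr18:56687467-56688793) had levels of 40.4, 29.2, 19.3, 38.0 and 24.3 in the same order. Its ratio with Cispl was 0.477 (0.409 to 0.555), beside 0.802 in the same decile, and 0.723, 0.942 and 0.603 after Oxali, IFNγ and Oxali + IFNγ, beside 0.940, 0.807 and 0.868. Another upstream region (chr18:56699461-56699871) was gained with Oxali (4.35), Cispl (4.14) and Oxali + IFNγ (3.10). Cispl alone gave a pair of neighbouring intronic regions (chr18:56719758-56719961 at 4.50 and chr18:56720028-56720490 at 4.36). The single loss with Oxali was an intronic region (chr18:56718172-56718706) of level 3.62 in Ctrl. Of the Lmnb1 regions called in both lists, 8 of 11 after Oxali, 8 of 12 after Cispl, 10 of 12 after IFNγ and 11 of 12 after Oxali + IFNγ had a ratio below the median of their decile, and none reached 1.5-fold higher.

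Il6 (chr5:30013114-30019981, plus strand) encodes interleukin-6, a central cytokine of the secretory phenotype. The region at its start site (chr5:30012521-30013758), which as merged over the lists contains the whole printed promoter, had a level of 28.0 in Ctrl (340 insertions), 43.8 after Oxali (494), 33.5 after Cispl (461), 17.8 after IFNγ (171) and 38.5 after Oxali + IFNγ (497). The lists with a platinum drug were above Ctrl and IFNγ alone was below it. The ratio was 1.56 (1.36 to 1.80) after Oxali, 1.20 (1.04 to 1.38) after Cispl, 0.635 (0.525 to 0.765) after IFNγ and 1.38 (1.20 to 1.58) after Oxali + IFNγ. The same decile had 1.03, 0.941, 0.840 and 0.998. A second, lower summit lay in the printed promoter itself, where the AP-1 letters are the nearest of the matches, and had levels of 12.9 in Ctrl, 25.8 after Oxali, 19.1 after Cispl, 8.31 after IFNγ and 21.9 after Oxali + IFNγ. Before scaling, each list lay on the same side of Ctrl there as at the main summit. Those with a platinum drug were farther above Ctrl in proportion than at the main summit. With IFNγ the region was called as separate intervals around each summit. This second summit was picked out after its values were seen. Among all start-site regions, where the median was below 1, a ratio at least as high was found in 6.74% after Oxali, 11.9% after Cispl and 10.0% after Oxali + IFNγ. Of the 4 genes with a region at the start site, Il6 was the one whose level was above Ctrl with any treatment beyond counting error. With the lists scaled to an equal median its ratio was 1.21 (1.05 to 1.39) after Oxali, but 0.997 (0.865 to 1.15) after Cispl and 1.06 (0.925 to 1.22) after Oxali + IFNγ, so on that scale the interval was above 1 with Oxali alone.

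The other Il6 regions called in Ctrl had ratios above 1 in the 3 lists with a platinum drug, except at the downstream one with Cispl and Oxali + IFNγ once the lists are scaled to an equal median, and not all were past counting error. In an intron 1650 bp past the start site (chr5:30014472-30014867) the levels were 5.11, 7.63, 8.57, 3.95 and 8.45 in Ctrl, Oxali, Cispl, IFNγ and Oxali + IFNγ. With a platinum drug its ratios were 1.49 (1.07 to 2.11), 1.68 (1.22 to 2.32) and 1.65 (1.20 to 2.30), and with the lists scaled to an equal median 1.15 (0.823 to 1.63), 1.40 (1.02 to 1.94) and 1.28 (0.928 to 1.78). Upstream, just past the 3′ end of the lincRNA A230098N10Rik, a region (chr5:29995630-29996057) had levels of 2.97, 5.59, 6.25 and 6.59 in Ctrl, Oxali, Cispl and Oxali + IFNγ and was not called with IFNγ, where it counts as lost. Its ratios were 1.88 (1.23 to 2.92), 2.11 (1.41 to 3.20) and 2.22 (1.49 to 3.38). The decile medians were 1.62 with Oxali, in the lowest decile, and 1.46 and 1.49 with Cispl and Oxali + IFNγ, in a higher one. With the lists scaled to an equal median the ratios were 1.46 (0.952 to 2.26), 1.76 (1.18 to 2.67) and 1.72 (1.15 to 2.61). The 201 bases around the summit of this region are 100% repeat-masked in the reference, so reads of other repeat copies may enter its level and their part was not tested. Downstream, a region 21169 bp past the start site (chr5:30033654-30034469) had 11.0, 15.7, 12.9, 14.3 and 13.9, and there IFNγ was above Ctrl too. Its ratio with Cispl was 1.18 (0.938 to 1.49), within counting error of Ctrl. With the lists scaled to an equal median the 4 ratios were 1.11 (0.880 to 1.40), 0.984 (0.782 to 1.24), 1.53 (1.20 to 1.96) and 0.985 (0.783 to 1.24), so IFNγ was then the highest list and the one past counting error. Of the bases around its summit 93.5% are repeat-masked. All 4 Il6 regions called in Ctrl lay above the median of their decile with Oxali, Cispl and Oxali + IFNγ, and 1 of 3 did with IFNγ. Only the start-site region had intervals wholly above that median in all 3 lists with a platinum drug. At the intronic region the medians were 1.31, 1.33 and 1.34, inside its intervals.

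Gains at Il6 were weak. A region in A230098N10Rik (chr5:30000987-30001263) was gained with Oxali (2.66), Cispl (3.71) and Oxali + IFNγ (3.25) and was not called with IFNγ. A region downstream (chr5:30023123-30023272, level 3.10) was gained with Oxali, and its bases are 100% repeat-masked too. Of the Il6 regions, the intronic one holds a C/EBP match, TTGTGCAA at chr5:30014832-30014839, with the same letters as the match in the promoter.

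Il1a (chr2:129299610-129309972, minus strand) encodes interleukin-1α, an alarm cytokine of the secretory phenotype. The highest region of its window (chr2:129296464-129297984) is at the start sites of the neighbours Ckap2l and Gm14023 and had levels of 118, 82.7, 66.8, 87.3 and 59.1 in Ctrl, Oxali, Cispl, IFNγ and Oxali + IFNγ. No region was called at the Il1a start site itself. In its last exon, 9374 bp past the start site, a region (chr2:129300479-129300717) was gained with Oxali (level 15.3, interval 13.1 to 17.8, 173 insertions) and Oxali + IFNγ (14.8, 12.8 to 17.1, 191 insertions). Ctrl, Cispl and IFNγ had no call there. It was the highest gained region at the cytokine genes. The local background was 53.0 and 52.2 insertions, well above the genome background, and the nearest Ctrl region was 2538 and 2532 bp away. It holds an AP-1 match, TGACTCA, at chr2:129300623-129300629.

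Upstream of Il1a a pair of weak regions appeared in all 4 treated lists and not in Ctrl. The nearer one (chr2:129317421-129317724, 7615 bp before the start site) had levels of 3.73 after Oxali, 3.41 after Cispl, 3.33 after IFNγ and 3.95 after Oxali + IFNγ. The farther one (chr2:129318041-129318286, 8177 bp before it) had 2.57, 4.72, 3.22 and 3.49. Each holds an AP-1 match reading TGAGTCA, at chr2:129317655-129317661 and chr2:129318160-129318166. Over the 58 merged regions, 4 (6.90%) were called in every treated list and not in Ctrl, beside 2.38% of the genome. They are this pair, the region in Gm12606 near Cdkn2a and a region at the start of Mmp1a in the Mmp3 window, and each of the 4 holds an AP-1 match, where 35.3% of the 5016 regions of the genome with the same pattern of calls do.

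Il1b (chr2:129364570-129371139, minus strand) encodes interleukin-1β, an inflammatory cytokine released by inflammasome activity. Ctrl had a single region in its window, a weak intronic one (chr2:129366647-129367097) with levels of 2.31 in Ctrl, 3.55 after Oxali, 2.18 after Cispl and 3.10 after Oxali + IFNγ, and it was lost with IFNγ. Its ratios were 1.54 (0.926 to 2.59), 0.945 (0.546 to 1.64) and 1.34 (0.809 to 2.26), beside higher decile medians of 1.62, 1.58 and 1.68. IFNγ had no called region in the Il1b window at all. In the 3′ flank lay a region (chr2:129363004-129363666) with an intergenic summit, 405 bp from the processed pseudogene Gm14039. It had a level of 10.6 after Oxali (8.75 to 12.6, 119 insertions), 3.78 after Cispl (2.82 to 4.95, 52 insertions) and 11.9 after Oxali + IFNγ (10.1 to 14.0, 154 insertions). Ctrl and IFNγ had no call, which means a level under about 1.73 and 1.87 if their background was that of the genome. The printed bases around its summit hold none of the 4 letter patterns and are not repeat-masked.

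Oxali + IFNγ added further Il1b regions, for 6 gains in all, beside 2 after Oxali, 1 after Cispl and none after IFNγ. A region 9984 bp past the start site (chr2:129360838-129361430) was called with Oxali (3.55) and Oxali + IFNγ (4.26). An intronic region (chr2:129367214-129367538) was called with Cispl (1.96) and Oxali + IFNγ (3.02) and holds an AP-1 match, TGAGTCA at chr2:129367391-129367397, and a C/EBP match. A region in Gm14039 (chr2:129362761-129362910, 3.25) was called with Oxali + IFNγ alone. The Il1b flank itself counts as 2 of the 6 gains, being called as separate intervals. Beside the flank at 11.9, the other gains with Oxali + IFNγ had levels from 2.17 to 4.26, where the lowest callable level was 1.70.

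Mmp3 (chr9:7445822-7455975, plus strand) encodes stromelysin-1, a matrix protease of the secretory phenotype. No region of its window was called in Ctrl. Oxali had 2, Cispl 1, IFNγ 1 and Oxali + IFNγ 5, with the highest at a level of 3.46. A region in an intron of the neighbour Mmp1a (chr9:7475107-7475365) had 3.46 after Oxali and 3.41 after Oxali + IFNγ. At the Mmp1a start site (chr9:7463903-7464228) the level was 3.02 after Oxali, 2.62 after Cispl, 2.60 after IFNγ and 2.71 after Oxali + IFNγ, with an AP-1 match, TGAGTCA at chr9:7464068-7464074. Inside Mmp3 the single region was intronic (chr9:7454945-7455143), with 3.10 after Oxali + IFNγ. A region 7214 bp before the start site (chr9:7438538-7438687, 2.87) was also called with Oxali + IFNγ alone, and 98.0% of the bases around its summit are repeat-masked. The Mmp3 promoter, with its AP-1 and C/EBP letters, was not called in any list.

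Igfbp3 (chr11:7206086-7213923, minus strand) encodes a binding protein for insulin-like growth factors that senescent cells secrete. Its window had no called region in Ctrl or IFNγ. An intronic region 3398 bp past the start site (chr11:7210405-7210698) had a level of 8.16 after Oxali (6.58 to 10.0, 92 insertions), 9.37 after Cispl (7.83 to 11.1, 129 insertions) and 8.06 after Oxali + IFNγ (6.58 to 9.76, 104 insertions). The 3 lists with a platinum drug overlapped within counting error, and the nearest Ctrl region was 69595, 69591 and 69591 bp away. The summit lies within the CTCF letters in capitals above, at chr11:7210522-7210533, which are present within 100 bases of the summit in 3.22% of all regions and in 1.29% of regions not called in Ctrl. Cispl had another pair, a region in an intron of Igfbp1 (chr11:7200089-7200491, 4.43) and one 1941 bp before the Igfbp3 start site (chr11:7215785-7215934, 2.76).

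**Figure D5:**
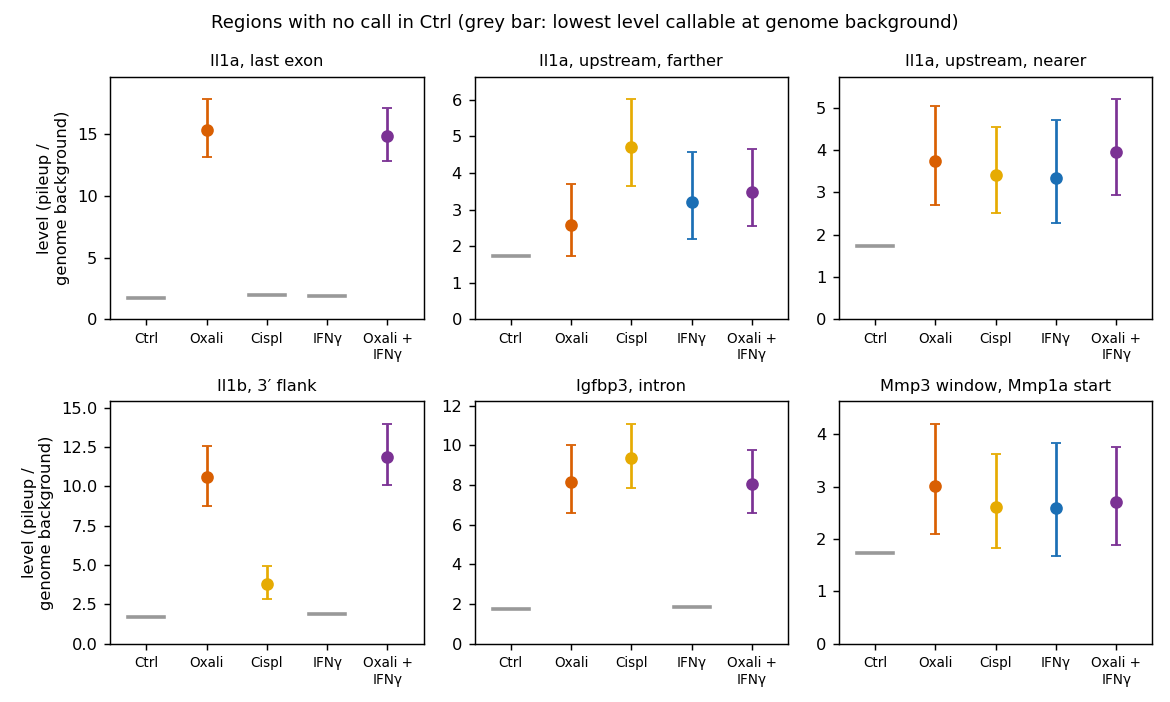
Level by list of 6 regions with no call in Ctrl, with 95% Poisson intervals that cover counting error, and a grey bar at the lowest level callable at genome background where a list had no call (at the last exon of Il1a the local background was higher, so the limit there is higher too). The Il1b flank is lower with Cispl than with Oxali, the Igfbp3 intron overlaps within counting error in the 3 lists with a platinum drug, and the Il1a upstream regions and the Mmp1a start are called in all 4 treated lists.

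Of the 58 merged regions 35 were not called in Ctrl, and 31 of these had a highest level under 5. The other 4 are the regions in the Lmnb1 first intron, the Il1a last exon, the Il1b flank and the Igfbp3 intron. An AP-1 match lay within 100 bases of the summit in 10 of the 35 (28.6%) and in 3 of the 23 called in Ctrl (13.0%). Over the genome the shares were 20.1% and 21.8%. A C/EBP match was found in 5 of the 35 and 2 of the 23, and an NF-κB match in none of the 58, where 7.76% and 2.53% of all regions had one.

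Oxaliplatin and cisplatin are both platinum complexes, which differ in their ligands (oxaliplatin carries diaminocyclohexane and oxalate, cisplatin ammine and chloride), and both were given at 2 µM for 48 h. Over the 32 regions of the 8 genes called with both, the median ratio of Cispl to Oxali was 0.851, beside 0.932 over all 129321 such regions and 0.879 over start-site regions. The counting interval lay below 1 at 10 regions and above 1 at 1, where all such regions had 28.5% and 10.8%. The lowest ratio was that of the Il1b flank, at 0.358 (0.253 to 0.500), and the Il6 start site had 0.764 (0.672 to 0.869). Cispl was higher at the farther Il1a upstream region, at 1.84 (1.17 to 2.95). At the Igfbp3 intron the ratio was 1.15 (0.872 to 1.52), which leaves room for a difference in either direction. No replicate error enters these intervals.

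To see what IFNγ added to oxaliplatin, Oxali + IFNγ was compared with Oxali. Over 34 regions called in both the median ratio was 0.970, beside 0.995 over the genome. The interval lay below 1 at 6 regions and above 1 at none, where all such regions had 15.3% and 8.22%. The lowest ratios were at the p19Arf start site, 0.533 (0.492 to 0.579), and the Lmnb1 start site, 0.604 (0.557 to 0.655), where start-site regions in general had a median of 0.794. The Il6 start site had 0.879 (0.774 to 0.997), and the Il1b flank 1.13 (0.884 to 1.45).

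A wider list of 58 other senescence and secretory genes, matched in full to the annotation, was counted beside the 8. A gained region lay within 20 kb of 49 after Oxali, 54 after Cispl, 31 after IFNγ and 52 after Oxali + IFNγ (84.5%, 93.1%, 53.4% and 89.7%, where the shares over protein-coding genes are given above). A start-site region was called in 44 to 46 of them. For the 44 called in both lists, the median ratio of the start-site level to Ctrl was 0.869, 0.744, 0.775 and 0.782, beside 0.766, 0.677, 0.706 and 0.593 over all start-site regions. A ratio of at least 1.5 was found at 8, 5, 0 and 8 genes, where all start-site regions had 7.48%, 6.36%, 0.672% and 8.02%. One as low as 1/1.5 was found at 10, 17, 9 and 18 genes, where all start-site regions had 26.4%, 47.9%, 38.5% and 59.5%.

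Of these genes 27 had a start-site region gained, lost or past 1.5-fold with at least 2 treatments, 7 of them higher and 15 lower. The 7 higher had low levels in Ctrl, from 2.64 to 17.9, and the 15 lower had high ones, from 76.6 to 291, as across the genome. Mmp12, macrophage elastase, had levels of 4.53, 15.7, 11.7, 3.33 and 17.7 in Ctrl, Oxali, Cispl, IFNγ and Oxali + IFNγ, a ratio of 3.47 (2.55 to 4.78) after Oxali, beside 1.38 in the same decile. Il1rn, the antagonist of the interleukin-1 receptor, had 2.64, 9.31, 4.80, 3.85 and 8.60. Icam1, an adhesion molecule, had 3.54, 8.52, 6.68, 3.53 and 11.5. The growth factor gene Fgf2 had 2.88, 8.34, 8.72, 2.91 and 8.91, and the chemokine gene Cxcl10 had 7.66, 16.4, 12.0, 9.04 and 16.1. For the collagenase gene Mmp13 the levels were 6.26, 10.7, 7.70, 8.52 and 13.3, and for the interleukin-1 receptor gene Il1r1 they were 17.9, 29.3, 21.7, 15.2 and 29.1. The 7 were picked for a ratio of at least 1.5 with 2 or more treatments, so that they lie above Ctrl follows from the choice. Their ratios after Oxali were between 1.64 and 3.53, beside decile medians between 1.09 and 1.62, and Mmp13 after Cispl was below its decile median, at 1.23 beside 1.33. Icam1 also lost a separate region near its start site with IFNγ, and Il1r1 lost one with Oxali + IFNγ. IFNγ was not among the treatments that picked them, and at all 7 its interval reached to both sides of 1. With the lists scaled to an equal median, the interval was above 1 at 6 after Oxali, 4 after Cispl, 3 after IFNγ and 7 after Oxali + IFNγ.

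The 15 lower genes fall outside the rule for named genes, and those named here were chosen after their values were seen. They include secretory genes as well (Vegfa, Lif, Plaur) and inhibitors of cyclin-dependent kinases (Cdkn1a, Cdkn2c, Cdkn2d). Cdkn1a, which encodes p21, had levels of 111, 68.2, 58.6, 72.9 and 47.1 in the same order, at ratios of 0.617, 0.530, 0.659 and 0.426, beside 0.711, 0.610, 0.680 and 0.528 in the same decile. Vegfa, the gene of a vascular growth factor, had 100, 59.3, 53.8, 64.6 and 47.9. Plaur had ratios of 0.762, 0.643, 0.809 and 0.665, above the median of its decile with every treatment, and Lif was above it with Oxali and Cispl. Both gained a further region near a start site in the 3 lists with a platinum drug. With Oxali, Cispl, IFNγ and Oxali + IFNγ, 3, 5, 5 and 1 of the 15 lay above their decile medians. The 15 were picked for low ratios, so their direction follows from the choice too.

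The remaining 3 genes that the rule named gained a further region near a start site. Il18, an interleukin-1 family cytokine, had a main level of 32.7, 46.5, 35.6, 32.0 and 48.9, a ratio of 1.42 (1.25 to 1.62) after Oxali and 1.50 (1.32 to 1.70) after Oxali + IFNγ beside 0.940 and 0.868 in the same decile, with gains beside it in the 3 lists with a platinum drug. Cxcl5, a neutrophil chemokine, had 81.1, 82.9, 63.4, 62.4 and 68.8, and Igfbp4, another binding protein for insulin-like growth factors, had 35.6, 31.1, 29.6, 26.9 and 25.8, each with a gain in Oxali and Oxali + IFNγ. Mmp9, a gelatinase gene, also met the criteria but has no ratio to rank by, and is named after its values were seen. Its start-site region was not called in Ctrl or IFNγ and was gained at levels of 3.37 after Oxali, 2.03 after Cispl and 5.42 after Oxali + IFNγ. Il1a, Il1b, Mmp3 and Igfbp3 had no start-site region from which a ratio could be taken.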

How the data were processed

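ATAC-seq of 10 Myc-CaP libraries was deposited as 5 peak lists. Per the labels and the study's methods, the authors trimmed reads with cutadapt, aligned them to mm10 with Bowtie2 2.2.8, filtered them with SAMtools, dropped mitochondrial and duplicate reads, merged the 2 libraries of a group and called peaks with MACS2 2.1.0 without a control, so depth per library was not analysed here. The deposited fold is a ratio of pileup to local background. The −log10 of the p-value that the authors deposited comes from the same pair, and their q-values are adjusted within a list. The deposited display score was not read. Pileups and backgrounds were solved from fold and p for 100% of summits in Oxali and IFNγ and 100.0% in the other lists. Lists end at a −log10 p of 2.00, but at 2.99 in Cispl. Pooling hides differences between libraries, and the paired ends of a fragment are not independent, so counting intervals are too narrow.

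Depth by genome background was 92.9%, 113%, 79.3% and 106% of Ctrl. Start sites came from GENCODE M21, promoters from RefSeq (GRCm38.p6), with Python 3.11.15, pandas 2.3.3 and scipy 1.17.1. The genome background is proportional to the reads of a list. The members and lists were chosen with earlier results of these data known. Named were regions within 1 kb of a start site, the highest region of each window, and gained or lost regions (the 4 of highest −log10 q where a gene had more), and at most 10 other genes whose start-site region was gained, lost or past 1.5-fold with at least 2 treatments, by largest ratio. The medians by decile of Ctrl level were added after the data were seen. Recovery and ratio intervals were tested on simulated data, and gains and losses by dropping regions from the Ctrl list. Merging across lists and the Poisson intervals were not tested in this way. Alternatives were other windows, q limits, overlaps and scalings. Some epithelial marker genes are not reported here.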

Additional observations from a re-analysis of the deposited data

How the results depend on the processing

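Of 93 alternative values for 17 results, 70 stayed within 1.5-fold or on the same side of 1. Windows of 50 kb gave 42, 75, 73, 53 and 78 called regions in Ctrl, Oxali, Cispl, IFNγ and Oxali + IFNγ, with 32, 30 and 36 gained with Oxali, Cispl and Oxali + IFNγ and 3, 1 and 2 lost. Windows of 5 kb gave 28 and 29 called regions in Oxali and Oxali + IFNγ, 8, 9, 2 and 12 gained with Oxali, Cispl, IFNγ and Oxali + IFNγ, and 1 lost with IFNγ. These counts moved because the windows hold more or less sequence. A q-value of at most 1e-05 left 4 gained and 1 lost with IFNγ, the shallowest list. The median log2 ratio with Oxali, 0.04, became -0.33 with the regions called in all lists set to an equal median, -0.15 with windows of 5 kb and -0.02 relative to the same decile of Ctrl level, an alternative chosen after seeing the data. Its sign is therefore not settled, and the cause was not tested. The medians of the other 3 treatments were negative under every alternative. No paired analysis was possible because each group is 1 pooled list, and for the same reason no library could be left out. Depth limits what can be said of regions near a level of 2.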
